A study of Mus musculus with 4 samples.

Results

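The microRNAs (miRNAs) that make up the array signal of wild-type (WT) mouse embryonic fibroblasts (MEFs) are described here, from 2 of the 4 arrays of a series on the kinase gene Lats2. Both samples carried the genotype Lats2+/+, were of strain C57BL/6J, received no treatment and came from 1 clone of a litter that also gave Lats2-/- cells. The later sample was taken at PDL 90 and the earlier at PDL 68, where PDL is read as population doubling level. The Lats2-/- arrays were not used. Because there was 1 WT array per PDL, every spread between the arrays mixes time in culture with technical error, no test across arrays was possible, and a single clone cannot stand for WT fibroblasts in general.

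Each mouse miRNA name on the array was represented by its brightest probe, as the mean of up to 20 spots that carried no outlier flag. The unit is the processed signal, a background-subtracted brightness on a linear scale. A miRNA was called present on an array when more than 0.5 of those spots were flagged well above background. Of 611 mouse miRNAs, 129 (21.1%) were present at PDL 90 and 124 (20.3%) at PDL 68, and 118 (19.3%) were present on both arrays. These 118 are the miRNAs described below, and a share is a percentage of their summed signal, which was 77290 units at PDL 90 and 88402 units at PDL 68. Probes bind their miRNAs with different strengths, so an order of signals is not an order of molecule numbers.

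A miRNA is cut from a hairpin precursor, is loaded into an Argonaute protein and guides it to messenger RNAs. Target choice depends mostly on the seed, a short stretch near the 5′ end, so miRNAs with one seed form a family with overlapping targets. Many miRNA genes lie close together and are transcribed as one precursor, and others lie inside the transcript of a host gene. In fibroblasts, miR-21, the miR-199a and miR-214 pair and the miR-29 family are among the best studied, the last for its collagen and other matrix targets.

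The mature sequences of the brightest miRNAs matched to RefSeq (GRCm38.p6) are shown because their seeds define the families that held most of the signal. Each is written 5′ to 3′ with its seed, bases 2 to 8, in capitals. A match needed the probe's target within a RefSeq mature sequence that also carried the miRNA's name, so an unmatched name may still be in RefSeq. Of the 118 present miRNAs 97 were matched in this way, and these held 84.8% of the signal. The other 21, among them miR-720, miR-709, miR-199b* and miR-23b, were counted in no seed family, so the share of a family is that of its matched members.
miR-21: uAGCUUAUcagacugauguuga
miR-125b-5p: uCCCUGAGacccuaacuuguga
miR-23a: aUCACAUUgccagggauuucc
miR-27a: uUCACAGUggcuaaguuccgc
miR-29b: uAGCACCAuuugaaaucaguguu
miR-29a: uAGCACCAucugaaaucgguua
miR-22: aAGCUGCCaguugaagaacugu
miR-199a-3p: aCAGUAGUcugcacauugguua
miR-24: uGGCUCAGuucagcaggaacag
miR-15b: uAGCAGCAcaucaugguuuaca
miR-16: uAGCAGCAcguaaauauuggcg
The pairs miR-29b with miR-29a and miR-15b with miR-16 each share a seed. The seeds of miR-23a and miR-27a, which lie in one cluster, differ.

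A single miRNA, miR-21, gave more of the signal of these fibroblasts than any other. miR-21, which is abundant in fibroblasts and in many tumours, measured 13293 units at PDL 90 and 18400.2 units at PDL 68, or 17.2% and 20.8% of the signal (mean 19.0% ± 2.56, SD, n = 2). Its probe lies at chr11:86397589-86397607 of mm9 on the minus strand, and RefSeq places the miRNA within Vmp1, a gene of autophagy, on the same strand. The next signal was that of miR-125b-5p, a relative of the nematode lin-4, with 7968 units at PDL 90 and 8276 units at PDL 68. It has 2 mapped positions, on chromosomes 9 and 16, and the array cannot say which gene the signal came from.

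The third signal was that of miR-720, with 5103 units at PDL 90 and 6631 units at PDL 68, and its spots varied more at PDL 90 (SD 1290.1) than at PDL 68 (SD 350). miR-23a measured 3048 units at PDL 90 and 3374 units at PDL 68. miR-709 measured 3171 units at PDL 90 and 3189 units at PDL 68. The probes of miR-720 and miR-709 were 12 bases long, with 75% and 66.7% G and C. Over the 118 miRNAs the medians were 18 bases and 47.4%. The part of probe composition in these signals was not tested. Neither was matched to RefSeq by probe target and name, which does not show that the name is absent from it. Whether the signals come from true miRNAs was not tested either.

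Of the let-7 family, which restrains growth genes such as Hmga2 and Lin28, let-7i measured 2952 units at PDL 90 and 3045 units at PDL 68, and let-7f measured 2569 units at PDL 90 and 2837 units at PDL 68. miR-27a, a regulator of fat cell formation, measured 2719 units at PDL 90 and 2634 units at PDL 68. miR-29b measured 2527 units at PDL 90 and 2831 units at PDL 68. By mean share miR-22 completed the 10 brightest, with 2203 units at PDL 90 and 2523 units at PDL 68. Next below them by mean share, miR-199a-3p measured 2159.6 units at PDL 90 and 2563.5 units at PDL 68. At PDL 68 miR-199a-3p and miR-29a (2582 units) exceeded miR-22, which ranked 12 on that array. miR-24 measured 1888 units at PDL 90 and 1844 units at PDL 68, and miR-199b* measured 1120.04 units at PDL 90 and 1319.97 units at PDL 68. All of these signals lay far above the negative control spots, which averaged 4.24 ± 3.45 units at PDL 90 and 3.53 ± 3.52 units at PDL 68 (SD over 434 spots each).

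The shares of neighbouring leading miRNAs overlapped between the arrays in some places and not in others. In the order by mean share, 9 of the 19 neighbouring pairs among the 20 brightest miRNAs did not overlap, meaning that the lower share of the brighter member exceeded the higher share of the dimmer one. These included miR-21 over miR-125b-5p, miR-125b-5p over miR-720, miR-720 over miR-23a and let-7i over let-7f, and further down miR-29a over let-7a, miR-24 over miR-199b*, miR-199b* over miR-19b and miR-19b over miR-15b. miR-23a, miR-709 and let-7i formed a run of overlapping neighbours, and so did let-7f, miR-27a and miR-29b. The 20 brightest miRNAs were the same on both arrays except for 1 place, which miR-221 took at PDL 90 and miR-199a-5p at PDL 68.

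**Figure D1:**
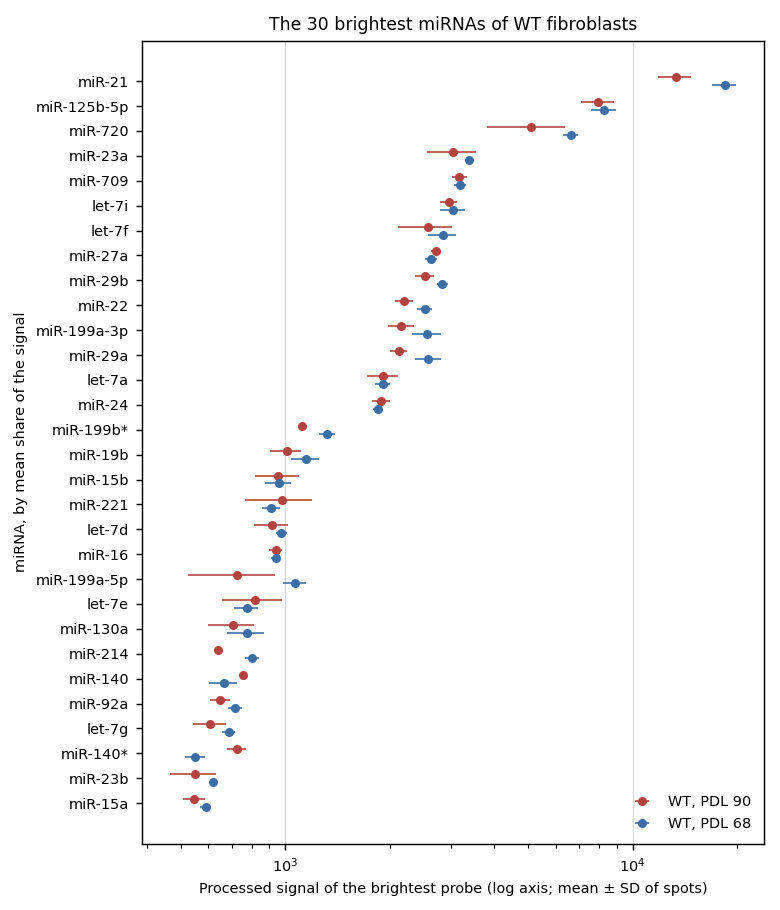
Processed signal (log axis) of the 30 brightest miRNAs in WT fibroblasts at PDL 90 and PDL 68, as mean ± SD of the spots of the brightest probe on each array. miR-21 stands at 13293 units at PDL 90 and 18400.2 units at PDL 68, and most other pairs of points lie close together.

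The signal was concentrated in few miRNAs. The 10 brightest of each array, ordered on that array alone, held 58.9% of it at PDL 90 and 60.9% at PDL 68 (mean 59.9% ± 1.36, SD, n = 2). It took 8 miRNAs at PDL 90 and 7 at PDL 68 to reach 50% of the signal, and 38 on each array to reach 90%. On each array 21 miRNAs held more than 1% of the signal each. The 20 brightest by mean share held 77.5% on average, which left 22.5% to the other 98.

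The dim end of the range lay close to the background. At PDL 90 47 of the 118 miRNAs, and at PDL 68 48, held less than 0.1% of the signal each. The brightest miRNA exceeded the dimmest one 834-fold at PDL 90 and 1239-fold at PDL 68. The lowest signal of a miRNA present on an array was 13.9 units at PDL 90 and 14.2 units at PDL 68, while the highest signal of one not present was 15.6 units at PDL 90 and 13.5 units at PDL 68. Signals near 14 units were therefore present or not present according to the spread of their own spots.

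**Figure D2:**
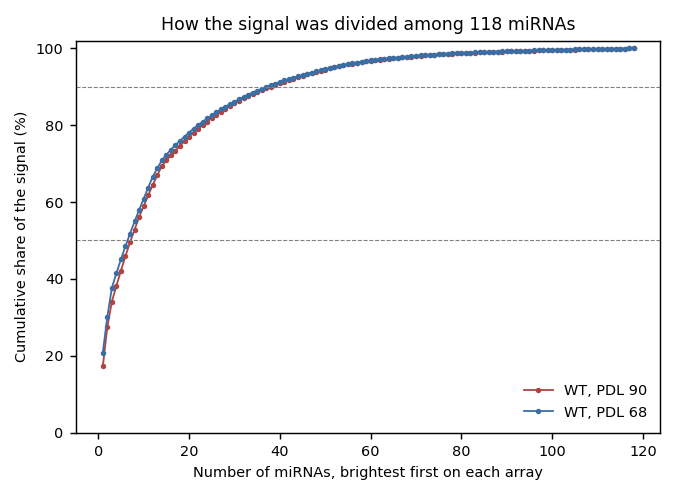
Cumulative share of the signal (%) against the number of miRNAs, ordered from the brightest down on each array, for WT fibroblasts at PDL 90 and PDL 68. The dashed lines at 50% and 90% are crossed at 8 and 38 miRNAs at PDL 90 and at 7 and 38 miRNAs at PDL 68.

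Grouped by seed, the signal was held by few families. The 97 matched miRNAs fell into 65 seed families, of which 18 had at least 2 present members. The 5 leading families held 52.8% of the signal and the 10 leading families 67.6%. First came the miR-21 seed AGCUUAU, with miR-21 as its one measured member.

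The let-7 seed GAGGUAG came second, with 14.0% at PDL 90 and 12.8% at PDL 68 (mean 13.4% ± 0.83, SD, n = 2), and was the largest family by members. All 9 members on the array were present, and the leading one, let-7i, gave 27.0% of the family's signal. let-7a measured 1911 units at PDL 90 and 1908 units at PDL 68, and let-7d measured 916 units at PDL 90 and 974 units at PDL 68. let-7e measured 819 units at PDL 90 and 774 units at PDL 68. let-7g, let-7c and let-7b were dimmer, between 462 and 607 units at PDL 90 and between 471 and 688 units at PDL 68. The dimmest member was miR-98, with 78.8 units at PDL 90 and 98.1 units at PDL 68. The members were thus spread over a wide range, although all carry the same seed.

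The let-7 sequences are set side by side because their probes have to tell apart targets that differ by few bases. Capitals here mark the bases that differ from let-7a, whose own sequence has none.
let-7a: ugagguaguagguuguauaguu
let-7i: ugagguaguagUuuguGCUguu
let-7f: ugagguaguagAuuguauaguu
let-7d: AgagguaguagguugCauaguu
let-7e: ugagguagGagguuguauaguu
let-7g: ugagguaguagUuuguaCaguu
let-7c: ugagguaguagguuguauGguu
let-7b: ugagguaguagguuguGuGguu
miR-98: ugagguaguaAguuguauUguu
let-7f, let-7e and let-7c differ from let-7a by 1 base, and let-7i differs by 4. Whether a probe also bound close members was not tested, and such binding would touch both the division among the members and the family total.

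The miR-125 seed CCCUGAG held 10.7% at PDL 90 and 9.70% at PDL 68, nearly all of it from miR-125b-5p. Its other present member, miR-125a-5p, measured 303 units at PDL 90 and 300.2 units at PDL 68. The miR-29 seed AGCACCA held 6.21% at PDL 90 and 6.34% at PDL 68, and all 3 members were present. miR-29a measured 2122 units at PDL 90 and 2582 units at PDL 68, close to miR-29b. miR-29c measured 151 units at PDL 90 and 193 units at PDL 68, far below both.

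Among the remaining leading families, the seed of miR-23a held 3.88% ± 0.09, that of miR-27a and miR-27b 3.68% ± 0.37, and that of the miR-15 and miR-16 group 3.15% ± 0.27 (SD, n = 2). The miR-15 and miR-16 group, which restrains cyclins and BCL2, had 4 of 6 members present. miR-15b measured 955 units at PDL 90 and 957 units at PDL 68, and miR-16 measured 937 units at PDL 90 and 941 units at PDL 68. miR-15a was dimmer, with 547 units at PDL 90 and 590.2 units at PDL 68. miR-322 was the dimmest present member, with 144 units at PDL 90 and 127 units at PDL 68. The 2 members not present were miR-195 (-1.97 units at PDL 90 and 0.34 at PDL 68) and miR-497 (-0.15 units at PDL 90 and -1.12 at PDL 68). The families of miR-22, miR-199a-3p and miR-24 had 1 member each and held 2.85%, 2.85% and 2.26% on average.

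Grouped by position, the brightest cluster was that of miR-23a, miR-27a and miR-24 on chromosome 8. A cluster here is a run of at least 2 hairpins on one strand with gaps of at most 10 kb in mm9. Of 56 such clusters on the array, 35 had a present member, 23 had at least 2, and 21 had none. A miRNA with more than 1 mapped position cannot be assigned to a cluster, and 21 present miRNAs with 30.7% of the signal were of this kind, so shares are given first without them. The order of the clusters depended on this choice. Positions are those of the probes. With multi-position members counted in each cluster, the let-7f, let-7a and let-7d cluster on chromosome 13 (chr13:48631400-48633632) came second, with 6.98% at PDL 90 and 6.47% at PDL 68, of which let-7d alone gave 1.14% on average, and the miR-199a and miR-214 cluster on chromosome 1 held 4.57% at PDL 90 and 5.01% at PDL 68.

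The miR-23a cluster (chr8:86732466-86732795, plus strand) held 7.48% at PDL 90 and 6.82% at PDL 68 (mean 7.15% ± 0.47, SD, n = 2). With miR-24, which also has a position on chromosome 13, it held 9.41% ± 0.72. The related cluster on chromosome 13 (chr13:63401842-63402580) was far dimmer. Its miR-23b measured 548 units at PDL 90 and 620.2 units at PDL 68, and its miR-27b measured 329 units at PDL 90 and 394 units at PDL 68, both below miR-23a and miR-27a. RefSeq places miR-27b within Aopep on the same strand.

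The cluster of miR-29a and miR-29b on chromosome 6 (chr6:31012678-31013091) held 2.79% at PDL 90 and 2.98% at PDL 68 from miR-29a and miR-29b*. With miR-29b, which also has a position on chromosome 1 beside miR-29c, it held 6.12% ± 0.09 (SD, n = 2). Counted by single-position members, the third cluster was let-7e with miR-125a-5p and miR-99b on chromosome 17 (chr17:17967165-17967840), which lies within Spaca6 and held 1.66% at PDL 90 and 1.43% at PDL 68. It joins members of the let-7, miR-125 and miR-99 families, and each of these families had a brighter member elsewhere. miR-99b measured 161 units at PDL 90 and 193 units at PDL 68, and its relative miR-100 on chromosome 9 measured 231 units at PDL 90 and 204 units at PDL 68.

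Clusters tied to cell division were present as well. The miR-17-92 cluster on chromosome 14 (chr14:115442916-115443718), a Myc-responsive promoter of proliferation, held 1.16% at PDL 90 and 1.17% at PDL 68 from its single-position members, and 3.31% at PDL 90 and 3.27% at PDL 68 with miR-19b and miR-92a. Of its members, miR-19b was brightest, with 1008 units at PDL 90 and 1144 units at PDL 68. miR-20a measured 463 units at PDL 90 and 547 units at PDL 68, and miR-18a measured 176 units at PDL 90 and 189 units at PDL 68. miR-92a measured 648 units at PDL 90 and 717 units at PDL 68, and miR-19a measured 238 units at PDL 90 and 269 units at PDL 68. miR-17, the cluster's first member, was not present, with 0.70 units at PDL 90 and 3.04 units at PDL 68, while miR-17* from the opposite strand of that hairpin was, with 22.6 units at PDL 90 and 25.7 units at PDL 68. The miR-17 probe was 13 bases long and that of miR-20a 19 bases, and the part of probe design was not tested.

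The miR-106b, miR-25 and miR-93 cluster (chr5:138606605-138607037), within the replication gene Mcm7, held 1.04% at PDL 90 and 0.95% at PDL 68. The miR-221 and miR-222 cluster on chromosome X, known to restrain the cell cycle inhibitor p27, held 1.32% at PDL 90 and 1.07% at PDL 68. Its members stood far apart, since miR-221 measured 978 units at PDL 90 and 909 units at PDL 68, while miR-222 measured 44.7 units at PDL 90 and 38.5 units at PDL 68. The cluster of miR-34b and miR-34c on chromosome 9, whose family responds to p53, was present in both members. miR-34b-5p measured 371 units at PDL 90 and 379.9 units at PDL 68, and miR-34c measured 314 units at PDL 90 and 320.4 units at PDL 68. miR-34a, which lies alone on chromosome 4, measured 439 units at PDL 90 and 533 units at PDL 68.

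**Figure D3:**
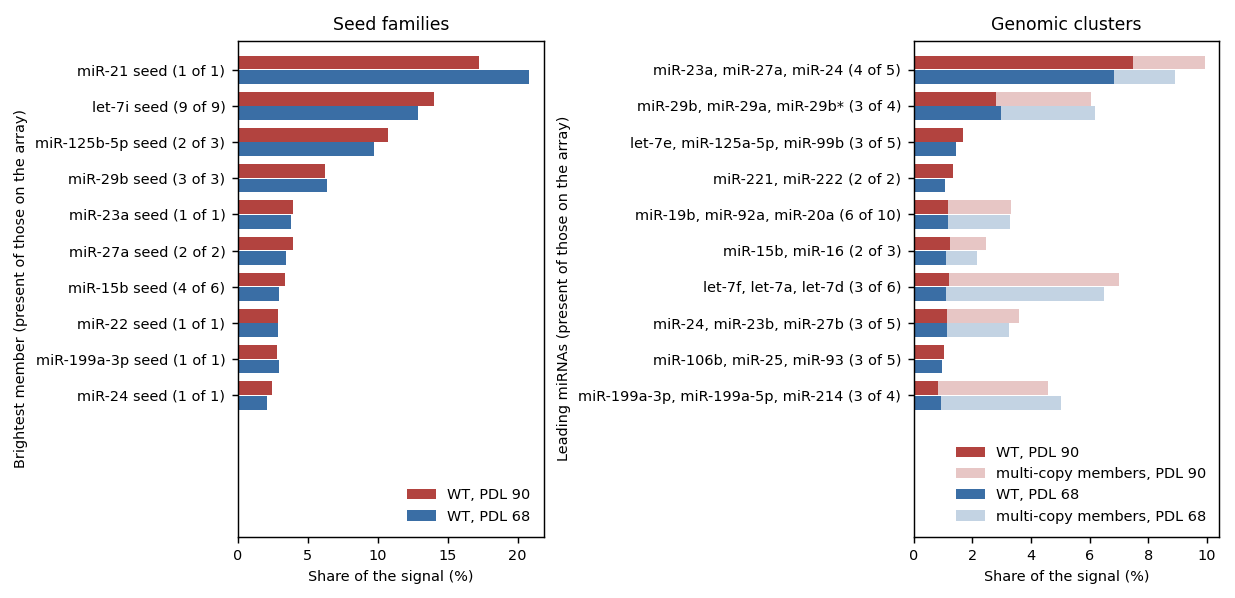
Share of the signal (%) held by the 10 leading seed families (left) and the 10 leading genomic clusters (right) in WT fibroblasts at PDL 90 and PDL 68, with the number of members present and on the array in brackets. Pale bars add members with more than 1 mapped position, which raise the miR-29b and miR-29a cluster to 6.06% at PDL 90 and 6.18% at PDL 68.

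In some other clusters few names or none were present, against 19.3% of all 611 names on the array. Of 52 miRNA names in the distal run of the imprinted Dlk1-Dio3 region on chromosome 12, 1 was present, miR-494, with 56.5 units at PDL 90 and 77.9 units at PDL 68. None of the 20 names in the proximal run was present. Of 34 names in the repeated miR-466, miR-467 and miR-669 group on chromosome 2, 4 were present, the brightest being miR-669f with 104 units at PDL 90 and 93.2 units at PDL 68. In the miR-322 cluster on chromosome X, 1 of 11 names was present, miR-322 itself. By single-position share the miR-322 cluster ranked 18 and the miR-669 group 19 of the 56 clusters, so these were not the dimmest.

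Some neighbours differed in presence although their hairpins lie close together. miR-143 on chromosome 18 measured 131 units at PDL 90 and 244 units at PDL 68, while its neighbour miR-145 was not present, with 5.61 units at PDL 90 and 3.50 units at PDL 68. miR-212 measured 34.8 units at PDL 90 and 36.5 units at PDL 68, while miR-132 was not present, with 6.47 units at PDL 90 and 6.00 units at PDL 68. The probes of miR-145 and miR-132 were 14 and 16 bases long, and whether the probes or the RNA levels differ was not tested.

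Where a hairpin gives miRNAs from both of its strands, one strand usually dominates. By name the array held 169 such pairs, and in 6 both names were present. Over all 611 names 19.3% were present on both arrays, so unrelated names would also seldom be present together. The count of 6 is therefore no result about strands. The strands are read by different probes, so a ratio of their signals is not a ratio of molecules. The strands of miR-140, which lies within Wwp2 and is known from cartilage, were nearly even. miR-140 measured 754 units at PDL 90 and 664 units at PDL 68, and miR-140* measured 726 units at PDL 90 and 549 units at PDL 68. Their ratio was 1.04 at PDL 90 and 1.21 at PDL 68. miR-199a-3p, which has 3 mapped positions, exceeded miR-199a-5p 2.97-fold at PDL 90 and 2.41-fold at PDL 68, and miR-31 exceeded miR-31* 3.99-fold at PDL 90 and 3.75-fold at PDL 68. The other pairs were strongly one-sided. miR-29b, which has 2 mapped positions against 1 for miR-29b*, exceeded it 74.6-fold at PDL 90 and 53.8-fold at PDL 68. miR-22 exceeded miR-22* 125-fold at PDL 90 and 107-fold at PDL 68. miR-24, which has 2 mapped positions, exceeded miR-24-2* 117-fold at PDL 90 and 93.7-fold at PDL 68. miR-22* (17.6 units at PDL 90 and 23.6 at PDL 68) and miR-24-2* (16.1 units at PDL 90 and 19.7 at PDL 68) lay close to the limit of detection, so these folds are imprecise. By position 1 further hairpin had both strands present, since a position of the miR-199a-3p probe on chromosome 2 (chr2:32174046-32174065) lies beside that of miR-199b* (chr2:32174007-32174027).

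The levels of miRNAs known to mark cell types are given as a description. The lists were drawn up with earlier results of these data known, so the counts, above all that of the fibroblast list, lend no support to the label. Of 11 fibroblast and mesenchymal miRNAs on the array, 10 were present, and together they held 26.3% of the signal at PDL 90 and 30.2% at PDL 68, mostly as miR-21. miR-214, a partner of miR-199a within the Dnm3os transcript, measured 641 units at PDL 90 and 804 units at PDL 68. miR-199a-5p measured 728 units at PDL 90 and 1064 units at PDL 68. The exception was miR-145.

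Nearly all of the listed markers of other cell types were at background. Over all 611 names 19.3% were present on both arrays, so a short list with none present says little. None of 8 epithelial miRNAs was present, and the highest of them, miR-429, measured 2.51 units at PDL 90 and -0.11 units at PDL 68. None of 6 blood, 2 endothelial, 3 pancreas or 1 liver miRNAs was present. These lists are not complete. On none of them are miR-96 (75.3 units at PDL 90 and 80.8 at PDL 68), miR-183 (25.3 and 26.2) and miR-155 (20.4 and 19.2), which were present. The defining markers miR-142-3p of blood (1.60 units at PDL 90 and -0.71 at PDL 68), miR-126-3p of endothelium (-3.04 at PDL 90 and -0.47 at PDL 68) and miR-122 of liver (-2.98 at PDL 90 and -2.46 at PDL 68) lay within the spread of the negative control spots or below it.

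Of 7 striated muscle miRNAs only miR-206 was present, with 24.3 units at PDL 90 and 32.5 units at PDL 68, and miR-1, miR-133a and miR-133b were not. Of the 8 listed neural miRNAs only miR-218 was present, with 85.8 units at PDL 90 and 93.4 units at PDL 68. It is a miRNA of motor neurons that lies within the Slit2 and Slit3 genes. The list is not complete. The neural-associated miR-7a (255 units at PDL 90 and 271 at PDL 68) and miR-129-3p (92.9 and 65.6) are not on it and were present. Of the defining neural markers, miR-124 measured -5.36 units at PDL 90 and -5.33 units at PDL 68, and miR-9 measured -1.68 units at PDL 90 and -1.39 units at PDL 68. In bulk RNA such as this, few cells with much of a miRNA and many cells with little of it cannot be told apart.

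None of 13 pluripotent stem cell miRNAs of the miR-290 and miR-302 clusters was present. Their highest signal was 11.4 units at PDL 90, for miR-294, which measured 2.64 units at PDL 68. None of 5 miRNAs of the Hox gene clusters was present, and the highest of these was miR-615-3p, with 15.4 units at PDL 90 and -1.63 units at PDL 68.

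**Figure D4:**
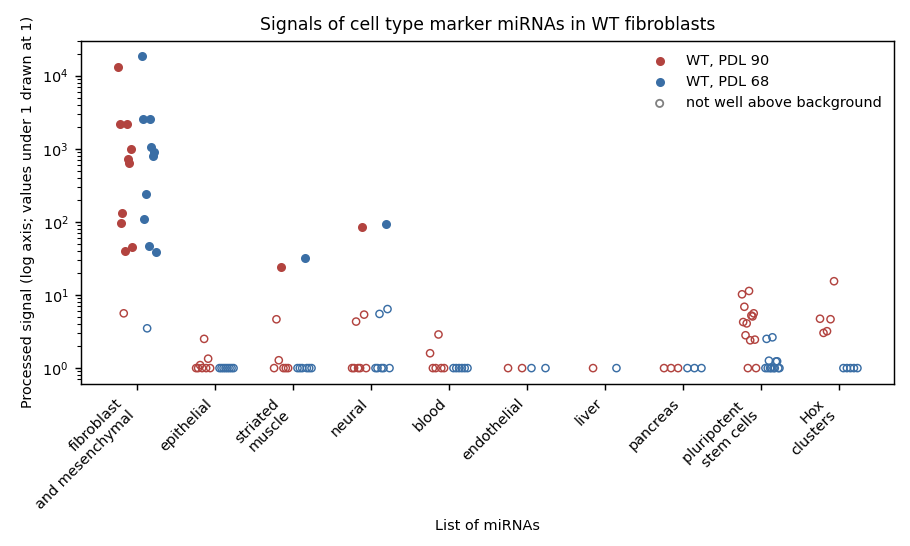
Processed signal (log axis, values under 1 drawn at 1) of miRNAs that mark cell types, in WT fibroblasts at PDL 90 and PDL 68, 1 point per miRNA and array. Filled points were present and open points were not well above background, and apart from the fibroblast and mesenchymal list only miR-206 and miR-218 are filled.

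The 118 present miRNAs were also set beside the 493 others by sequence. Among those matched to RefSeq, 52 of 97 present miRNAs (53.6%) began with U, against 153 of 399 (38.3%) of the others, and those that began with U held 64.7% of the signal. A 5′ U is a base that Argonaute proteins bind well. Names with a star, which marks the less abundant strand of a hairpin, made up 8 of the 118 present miRNAs and 107 of the 493 others. The probes of the present miRNAs were of lower G and C content, with a median of 47.4% against 50%. A host gene on the same strand was found for 58 of 97 present miRNAs (59.8%) and for 196 of 399 others (49.1%). These shares are descriptions with no test, since neighbouring and related miRNAs are not independent.

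Among miRNAs present on both arrays, the signals at PDL 90 and PDL 68 lay within 2-fold of each other. To compare them, each array was divided by the 75th percentile of its 198 probes well above background on both arrays, 448 units at PDL 90 and 479 units at PDL 68. Of the 118 miRNAs, none was 2-fold or more higher and none 2-fold or more lower at PDL 90 (0% in each direction). The choice of miRNAs present on both arrays leaves out those seen at one PDL alone. With presence on 1 array enough and a floor of 1 unit, 10 of 135 were 2-fold or more higher at PDL 90 and 0 lower. The median signal of names not present on both arrays was also higher at PDL 90 (0.44 units) than at PDL 68 (-2.10 units). The part of this background difference in the 10 was not tested. The log2 ratio of PDL 90 over PDL 68 had a median of -0.03 and an SD of 0.23, with 49 miRNAs above 0 and 69 below, and 112 within 0.5 of 0. The split depended on the scaling, with 95 above and 23 below when arrays were scaled by the median, and 29 above and 89 below without scaling. Over the 118 miRNAs the log2 signals of the arrays had a Pearson's r of 0.996 and the signals a Spearman's rho of 0.992. Both describe 2 arrays of 1 clone on 1 slide.

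The lowest ratio was that of miR-143, a miRNA of mesenchymal and smooth muscle cells, at -0.80. Its spots varied more at PDL 90 (SD 68.3 around 131 units) than at PDL 68 (SD 9.82 around 244 units). miR-148a followed at -0.63, with 67.1 units at PDL 90 and 111 units at PDL 68. miR-33, which lies within the sterol regulator gene Srebf2, was at -0.61, with 18.9 units at PDL 90 and 30.8 units at PDL 68. miR-26a was at -0.54, miR-29b* at -0.54 and miR-199a-5p at -0.45.

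The highest ratio was that of miR-129-3p at 0.60, with 92.9 units at PDL 90 and 65.6 units at PDL 68. miR-140* was at 0.50 and miR-140 from the same hairpin at 0.28. miR-484 was at 0.44, miR-712 at 0.32 and miR-222 at 0.31, all at signals under 50 units. miR-21, the brightest, was at -0.37. Without a second sample at either PDL, none of these differences can be set against a spread between cultures. The median spot variation within a probe was 12.4% at PDL 90 and 8.12% at PDL 68.

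**Figure D5:**
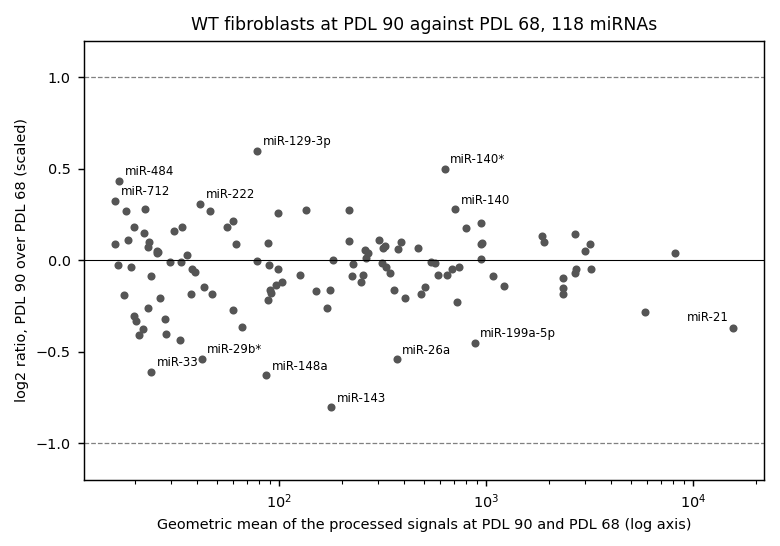
Scaled log2 ratio of PDL 90 over PDL 68 for the 118 miRNAs present on both WT arrays, against the geometric mean of their signals (log axis), 1 point per miRNA. All points lie between the dashed lines of a 2-fold difference, with miR-143 lowest at -0.80 and miR-129-3p highest at 0.60.

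A few miRNAs were present at one PDL alone, all near the background. At PDL 90 alone 11 were present, with signals of 13.9 to 25.9 units, and miR-328 (25.9 units at PDL 90 and 0.68 at PDL 68), let-7d* (21.8 units at PDL 90 and 8.69 at PDL 68) and miR-483* (20.1 units at PDL 90 and 1.76 at PDL 68) were brightest. For 10 of the 11, no spot was flagged well above background at PDL 68. At PDL 68 alone 6 were present, with 14.2 to 20.8 units, led by miR-188-5p (13.7 units at PDL 90 and 20.8 at PDL 68), miR-423-5p (15.6 units at PDL 90 and 19.0 at PDL 68) and miR-181a (12.5 units at PDL 90 and 16.5 at PDL 68). All 6 had some flagged spots at PDL 90, so they lay at the limit of detection on that array. The probes of the 11 had a median G and C content of 66.7% and those of the 6 of 57.2%. The part of probe composition, or of the higher median signal of names not present at PDL 90, was not tested.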

How the data were processed

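Total RNA of 2 WT samples was labelled with Cy3 and hybridised, 1 sample per array, to Agilent mouse miRNA arrays. Per the file headers, the authors used Agilent Feature Extraction 10.5.1.1, and the deposited intensity per spot is background-subtracted and linear, with no scaling between arrays. The deposited flags mark outlier spots and spots well above background. The deposited value table differed from its own arrays by at most 0.495%. Each array held 13715 spots, of which 12220 belonged to 1759 probes of 611 mouse miRNAs. No mouse spot was saturated. Both arrays shared 1 slide and 1 scan.

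Left out were control spots and outlier-flagged spots (3.02% at PDL 90 and 2.79% at PDL 68) and the rest were averaged per probe. Names and mm9 positions are those of the array. Mature sequences came from RefSeq tables of GRCm38.p6, matched by probe target and name. Host genes were those on the same strand whose GRCm38.p6 coordinates span the matched miRNA. Those coordinates are not printed. Named were the 20 brightest miRNAs, present members of the 10 leading families and clusters, the 6 highest and 6 lowest ratios, the 3 brightest present at one PDL alone, hairpins with both strands present and marker list members. Other miRNAs named in the text were chosen after their values were seen. The choice of samples, lists and rules was made with earlier results of these data known. Alternatives used limma 3.58.1 (normexp, offset 50) in R 4.3.3, and other steps Python 3.11.15 with pandas 2.3.3. The number of arrays limits the precision. Ratios and shares were checked on simulated spots.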

Additional observations from a re-analysis of the deposited data

Results flagged for a closer look

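A signal appeared outside the mouse miRNAs. Of 39 viral miRNA names on the array, 1 was present on both WT arrays, mcmv-miR-M23-1-5p of murine cytomegalovirus, with 38.5 units at PDL 90 and 42.2 units at PDL 68 (mean 40.4). It was singled out because no comparison above used the viral probes and the negative control spots averaged 4.24 units at PDL 90 and 3.53 units at PDL 68. A further viral name, mghv-miR-M1-2, was present at PDL 90 alone, with 20.5 units there and 5.90 units at PDL 68. Whether these probes bound mouse RNA was not tested.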

How the results depend on the processing

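The 10 brightest miRNAs held over 50% of the signal under every alternative run, but exact shares moved. Their share was 58.3% by the scanner's summed signal of each miRNA and 58.3% by the mean of all probes, 55.7% after normexp correction, 54.0% without miR-21, and 61.3% without miR-720 and miR-709, an alternative chosen after seeing the data. In the order summed signal, mean of all probes, without miR-21, and without miR-720 and miR-709, the let-7 family held 15.0%, 15.0%, 16.6% and 15.1%, and the miR-125 family 7.99%, 7.99%, 12.6% and 11.4%. In that order the miR-29 family held 6.09%, 6.12%, 7.75% and 7.04%, and 5.97% after normexp. The miR-29b and miR-29a cluster held 3.22%, 3.25%, 3.57% and 3.24%, and the let-7e cluster 1.71%, 1.71%, 1.91% and 1.74%. The miR-23a cluster held 8.82% without miR-21 and 8.03% without miR-720 and miR-709. With multi-position miRNAs counted in each cluster, the miR-23a cluster held 9.41% and the miR-29b and miR-29a cluster 6.12%, and the let-7f, let-7a and let-7d cluster, at 6.73%, came between them. Leaving out miRNAs raises the remaining shares by construction. The normexp run adds an offset of 50 units to every spot, which by construction lowers the shares of the brightest miRNAs. How much of the normexp shift came from the offset was not tested, nor was the cause of the other shifts.

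With either array alone, the 10 brightest held 58.9% to 60.9%, miR-21 17.2% to 20.8%, the let-7, miR-125 and miR-29 families 12.8% to 14.0%, 9.70% to 10.7% and 6.21% to 6.34%, and the miR-23a, miR-29b and let-7e clusters 6.82% to 7.48%, 2.79% to 2.98% and 1.43% to 1.66%. From 7 to 8 miRNAs then reached 50% of the signal, 38 reached 90%, and 124 to 129 were present. Averaged over the arrays, 90% was reached by 49.5 miRNAs after normexp, 42 without miR-21 and 40.5 with all mouse miRNAs in the denominator. The number present on both was 137 by the scanner's detection flag, 118 by any probe, 95 where all spots had to be flagged, and 117 with outlier spots kept.

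The count of 2-fold differences between PDL 90 and PDL 68 was 118 when arrays were scaled by the 75th percentile of all mouse probes, which lay in the background (4.76 units at PDL 90 and 0.06 at PDL 68), so that this scaling measures nothing. It was 10, all higher at PDL 90, among the 135 miRNAs present on at least 1 array with a floor of 1 unit, and 0 under the 6 other alternatives. Names not present on both arrays also had a higher median signal at PDL 90 (0.44 against -2.10 units at PDL 68). The median log2 ratio was 0.17 with median scaling and -0.13 without scaling, so the split of miRNAs above and below 0 depends on the scaling. miR-143 was below 0 under each of these alternatives, and miR-129-3p above 0 under each but the background scaling. Leaving out an array was not possible here.

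No paired analysis was possible because only 2 WT arrays, 1 per PDL, were used with no second group, and no test was made. Signal over background limits what can be said of miRNAs near 14 units.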

Other observations

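By chromosome, counting miRNAs whose mapped positions all lie on 1 chromosome, chromosome 11 held the most signal. It held 20.9% at PDL 90 and 24.5% at PDL 68, most of it from miR-21, with 8 of 35 names present. Chromosome 8 followed, with 13.5% at PDL 90 and 11.8% at PDL 68, where the miR-23a cluster, miR-709 and the miR-140 hairpin lie, and 7 of 16 names were present. Chromosome 12 carried the most names, 86, of which 3 were present, with 0.27% of the signal on each array. Chromosome X carried 81 names, of which 11 were present, with 2.17% at PDL 90 and 1.90% at PDL 68. The percentages of names present were 22.9% on chromosome 11, 43.75% on 8, 3.49% on 12 and 13.6% on X. Of all 611 names on the array, 19.3% were present on both arrays, which is near the value for chromosome 11.

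Host genes joined several dim and bright miRNAs. miR-26a and miR-26b lie within the phosphatase genes Ctdsp2, Ctdspl and Ctdsp1, and miR-103 and miR-107 within the pantothenate kinase genes Pank1, Pank2 and Pank3. miR-103 measured 311 units at PDL 90 and 342 units at PDL 68, and miR-107 measured 303 units at PDL 90 and 327 units at PDL 68. miR-15a lies within Dleu2 on chromosome 14, as does 1 copy of miR-16. The miR-16 probe also maps to chromosome 3, so its signal cannot be assigned to Dleu2.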
